A study of Danio rerio with 2 samples.

Results

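The uts1 neurons are a small set of barcodes in a single-cell RNA study of adult zebrafish brain, chosen by a rule on counts of unique molecular identifiers (UMIs, which count captured RNA molecules). A barcode of either library was kept if it reached 1000 UMIs and 500 genes and if mitochondrial genes gave no more than 15% of its UMIs. A kept barcode was a member when it held at least 2 UMIs of uts1, at least 2 of the 4 genes otofa, unc5db, scn5lab and slc17a6b, and fewer than 3 summed UMIs of the GABAergic genes gad1b, gad2 and slc32a1. The rule found 84 members among 7322 kept barcodes, 32 of 3231 in the knockout library and 52 of 4091 in the control library. The other 7238 kept barcodes are called the rest. Knockout fish had the genotype gpr85GAL4/GAL4 and control fish gpr85Gal4/+, so the control animals also carried 1 knock-in allele at gpr85. All fish were adult, and the number of brains in each library is not given in the labels. Brains were dissociated with papain and cells sorted for eGFP, with dead cells left out, and libraries were made with 10x Genomics 3' chemistry. Each genotype had 1 library, so no comparison between them carries a replicate check, and no p-value is given. Intervals are at 95% and, apart from those of the depth ratios, cover counting error only, not differences between animals, sorts or barcodes. The depth ratio intervals cover the sampling error of the members' median depth within a library. They cover neither the full spread of members nor differences between animals or sorts.

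Urotensin 1, the product of uts1, is a peptide of the corticotropin-releasing hormone (CRH) family and the fish counterpart of mammalian urocortin. Peptides of this family act on CRH receptors, and crhbp encodes a secreted protein that binds them. Otoferlin, the product of otofa, is a calcium-binding ferlin known for its role in vesicle release at hair cell synapses. The slc17a6b product loads glutamate into synaptic vesicles, unc5db encodes a netrin receptor and scn5lab a voltage-gated sodium channel. The gene adcyap1b encodes PACAP, a peptide that acts on receptors shared with VIP. Gpr85 itself is an orphan G protein-coupled receptor and belongs with gpr27 and gpr173 to the SREB family.

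The knockout library held 17646062 UMIs and the control library 19368218 UMIs. Barcodes under 100 UMIs, a measure of free RNA, held 29.0% of UMIs in the knockout and 24.4% in the control library. The kept barcodes of both libraries had 8 sequences in common, none of them a member in either library. Most of the rest carried granule cell genes and are called granule barcodes: 2874 knockout and 3541 control barcodes had at least 3 summed UMIs of cbln12, gabra6b, zic1, fat2, vamp1 and barhl1a. Of the members, 29 of 32 in the knockout and 38 of 52 in the control library met this same minimum, so it does not set the rest apart from them. Comparisons with the rest are mostly comparisons with shallower barcodes that meet it. For contrast, 39 knockout and 76 control barcodes were GABAergic by at least 3 UMIs of gad1b, gad2 and slc32a1. Another 47 knockout and 145 control barcodes held at least 2 UMIs of galn together with pvalb7 or neurod6a.

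Members made up 0.990% of kept barcodes in the knockout library (exact binomial interval 0.678% to 1.40%) and 1.27% in the control library (0.951% to 1.66%). The log2 ratio of these shares was -0.36 with an interval of -0.99 to 0.27, which takes in 0. A lower share was therefore not resolved at this number of barcodes. With 1 library a genotype, the yield of the sort and the genotype cannot be told apart.

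Members were among the deepest barcodes. They held a median of 8896.5 UMIs in the knockout library, against 2836 in the knockout rest, a ratio of 3.14 (interval 2.43 to 3.66). In the control library the medians were 8004.5 UMIs in members and 2566 in the rest, a ratio of 3.12 (interval 2.64 to 3.48). Median genes per barcode were 3513 in knockout members against 1589 in the knockout rest, and 3273.5 in control members against 1518 in the control rest. Depth was not particular to them: GABAergic barcodes had medians of 11216 UMIs in the knockout and 11282 in the control library, and galn barcodes 7545 and 7796 UMIs in the same libraries. The rule asks for several genes at once, which deep barcodes pass more easily, so the depth is partly set by the choice of members. Cell size itself was not measured. When each barcode was thinned to 1000 UMIs, members still held slightly more genes, with medians of 777 in knockout members against 742 in the knockout rest and 783.5 in control members against 755 in the control rest.

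**Figure D1:**
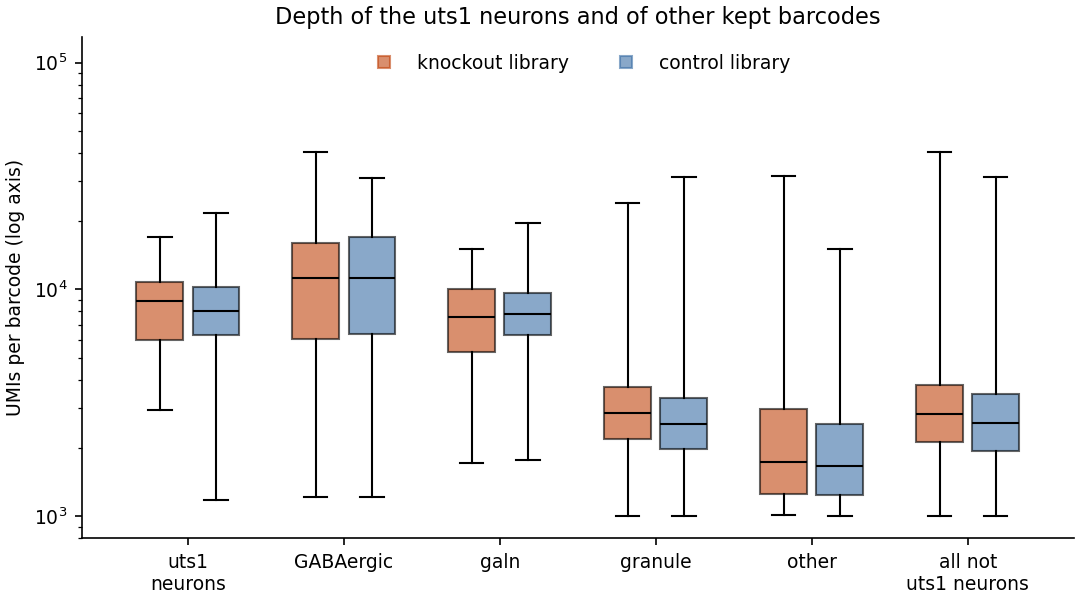
UMIs per kept barcode on a log axis, by population, with the knockout library left of the control library; boxes span the quartiles, the line is the median and whiskers reach the lowest and highest barcode. The medians of the uts1 neurons, 8896.5 in the knockout and 8004.5 in the control library, lie near those of galn barcodes and above those of granule barcodes.

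The genes of the rule describe how the members were chosen and support nothing further. Counts of uts1 had lowest 2, median 6 and highest 92 UMIs in knockout members, and lowest 2, median 9 and highest 79 UMIs in control members. Summed over barcodes and scaled to CPM (UMIs of a gene per 1000000 UMIs of its group), uts1 stood at 1620.2 CPM in knockout and 1497 CPM in control members, against 23.8 CPM in the knockout rest and 21.1 CPM in the control rest. The vesicular glutamate transporter slc17a6b was seen in every member of both libraries, with lowest 1, median 15.5 and highest 44 UMIs in knockout members, and lowest 1, median 14 and highest 39 UMIs in control members. Otoferlin RNA (otofa) was seen in 93.8% of knockout and 92.3% of control members, unc5db in 78.1% of knockout and 86.5% of control members and scn5lab in 84.4% of knockout and 86.5% of control members. All 4 of otofa, unc5db, scn5lab and slc17a6b were present in 22 knockout and 38 control members, and exactly 2 in 4 members of each library. At the uts1 threshold, 7 knockout and 6 control members held exactly 2 UMIs, and 7 knockout and 9 control barcodes that met the other conditions were left out with 1 UMI. Another 6 knockout and 11 control barcodes were left out only for GABAergic UMIs. Those reached 82 uts1 UMIs in the knockout and 64 in the control library, and held between 6429 and 40147 UMIs in the knockout and between 8167 and 23449 in the control library.

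The label of large glutamatergic neurons could be checked in part. Glutamatergic identity rests on slc17a6b, which the rule used. A second vesicular glutamate transporter, slc17a7a, was at 83.3 CPM in knockout and 39.5 CPM in control members, against 564 CPM in the knockout rest and 499.8 CPM in the control rest. GABA and glycine genes summed to 101 CPM in knockout and 51.1 CPM in control members, against 325 CPM in the knockout rest and 457 CPM in the control rest, but the rule itself limits 3 of the 9 genes. The pan-neuronal RNA-binding gene elavl4 was at 4368 CPM in knockout and 5214 CPM in control members. Its levels were 2282 CPM in the knockout rest and 2081 CPM in the control rest. Another neuronal gene, rbfox3a (NeuN), went the other way and is given below with the lowest genes. Of 15 genes for acetylcholine, catecholamine, serotonin and histamine neurons, 11 had no UMI in any member. Markers of oligodendrocytes summed to 191 CPM in knockout and 220.5 CPM in control members, of microglia to 121 and 116 CPM in those members, and of vessels and blood to 41.6 and 23.2 CPM. In the rest the same sums were 259.5 CPM in the knockout and 372 CPM in the control library for oligodendrocytes, 656 and 370.2 CPM for microglia, and 262 and 235 CPM for vessels and blood. No microglial gene but aif1l and no oligodendrocyte gene but cnp reached 50 UMIs over the members, and cnp was at least 2-fold higher in members than in the rest, log2 1.29 in the knockout and 1.18 in the control library.

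Of 3206 genes with at least 50 UMIs over the members, 440 (13.7%) were at least 2-fold higher in members than in the rest in both libraries and 125 (3.9%) at least 2-fold lower. At 8-fold, 85 genes (2.65%) were higher in both. These contrasts describe the barcodes the rule picked. Set against GABAergic barcodes in place of the rest, 194 genes were 2-fold higher, of which 151 were among the 440. Among barcodes at least as deep as the lower quartile of members, the number was 311, with 293 shared. The median log2 ratio over all 3206 genes was 0.14. A gene could enter only through its UMIs in members, so genes low in members are left out, and counts of higher against lower genes lean to higher. The lists that follow are descriptions, to be read beside the 13.7% higher and 3.9% lower over all genes.

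The 25 leading genes were ranked by the smaller of their ratios in the 2 libraries and include the rule genes. Only genes seen in at least 25% of the members of each library were ranked. The PACAP gene adcyap1b, not part of the rule, was at 1922 CPM in knockout and 2249 CPM in control members, against 110.3 CPM in the knockout rest and 80.2 CPM in the control rest. It had lowest 0, median 9.5 and highest 63 UMIs in knockout members, and lowest 0, median 19 and highest 59 UMIs in control members. A receptor for VIP and PACAP, vipr1b, stood at 482 CPM in knockout and 327 CPM in control members, against 12.9 CPM in the knockout rest and 11.8 CPM in the control rest, and was seen in 62.5% of knockout and 67.3% of control members. The glucagon receptor gcgra was lower in level but similar in ratio, log2 4.68 in the knockout and 4.01 in the control library, and was seen in 40.6% of knockout and 26.9% of control members. Ligand genes tgfa and nrg1 had ratios of log2 4.98 in the knockout and 5.21 in the control library, and of log2 4.47 in the knockout and 4.81 in the control library. The gene errfi1a, whose product inhibits the epidermal growth factor receptor, was at 187 CPM in knockout and 193 CPM in control members, against 9.79 CPM in the knockout rest and 11.03 CPM in the control rest.

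Other leading genes had a range of known roles. The kainate and NMDA receptor auxiliary gene neto1l reached 1762 CPM in knockout and 2051 CPM in control members, against 60.5 CPM in the knockout rest and 95.1 CPM in the control rest. Netrin-G1 (ntng1a), a synaptic adhesion protein, was at 888 CPM in knockout and 942 CPM in control members, against 35.3 CPM in the knockout rest and 60.7 CPM in the control rest. The neuronal pentraxin nptx2b, which clusters AMPA receptors, had ratios of log2 4.40 in the knockout and 5.33 in the control library, and the complement-like synaptic organiser c1ql3b of log2 5.73 in the knockout and 3.92 in the control library. Perlecan (hspg2), a heparan sulphate proteoglycan of basement membranes, was at 340.0 CPM in knockout and 309 CPM in control members, against 13.6 CPM in the knockout rest and 11.3 CPM in the control rest. The first gene by ratio, selenou1b, a selenoprotein gene, was at 69.4 CPM in knockout and 174 CPM in control members, against 0.732 CPM in the knockout rest and 1.80 CPM in the control rest, and was seen in 25% of knockout and 61.5% of control members. The zinc-finger repressors scrt1b and zbtb7c had ratios of log2 4.32 in the knockout and 4.83 in the control library, and of log2 5.44 in the knockout and 4.59 in the control library. The remaining leading genes were adgrg1, fcho1, magixb, bcl2l11, rftn1a and cd99, at 71.9 to 406 CPM in members, and the rule genes.

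**Figure D2:**
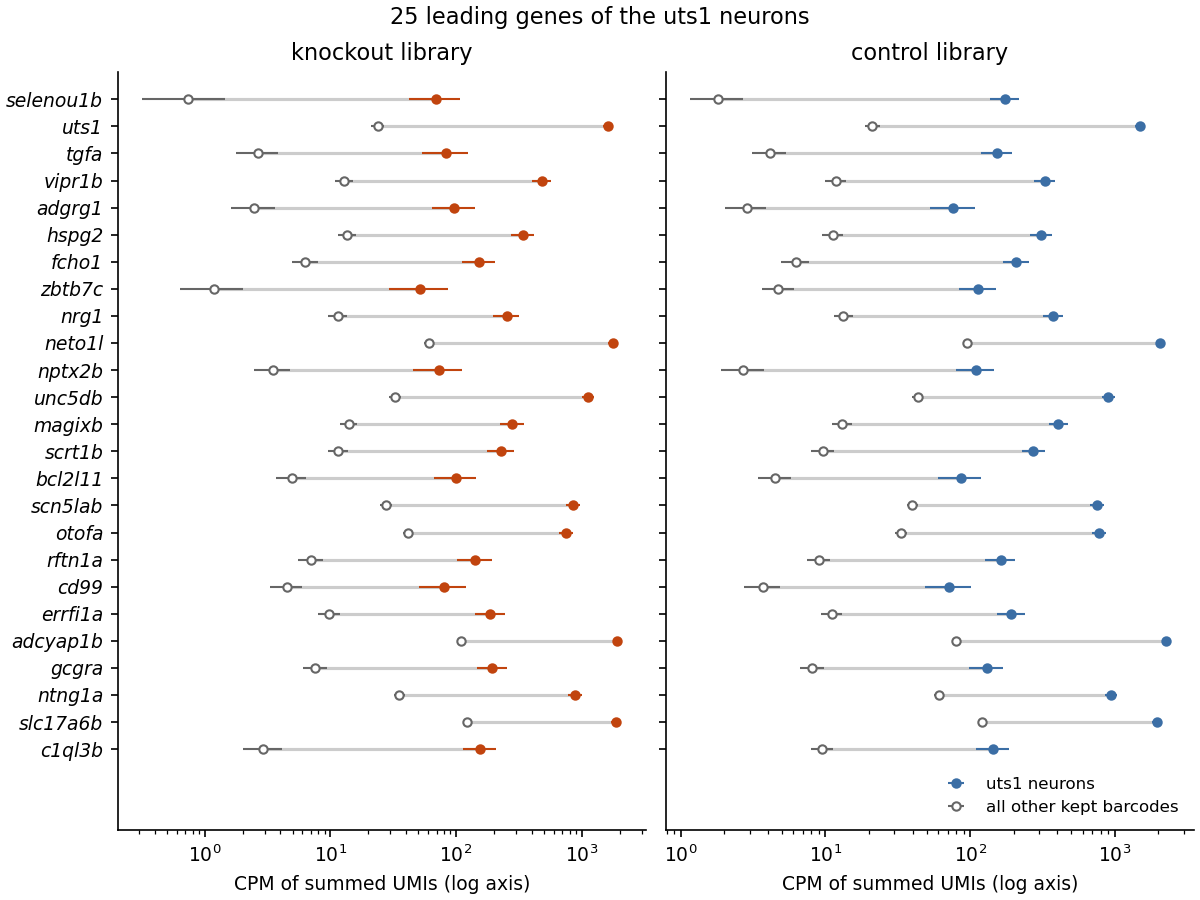
CPM of summed UMIs on a log axis for the 25 leading genes, knockout library left and control library right; filled points are the uts1 neurons, open points all other kept barcodes, and bars exact Poisson 95% intervals, which cover counting error only. In both libraries every filled point lies above its open point, as the choice of genes sets, with uts1 at 1620.2 CPM in knockout and 1497 CPM in control members.

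In the peptide lists, few peptides beyond uts1 and adcyap1b were present. Of 62 neuropeptide genes in the files, 42 had no UMI in any member and 3 reached 50 UMIs, these being uts1, adcyap1b and kiss1. The share of all genes without a UMI in members is not given here, so the count of 42 has no background. Of 20 genes for peptide processing and dense-core vesicles, 2 of 14 measured genes were at least 2-fold higher and 2 at least 2-fold lower in both libraries (median log2 0.46), where the share higher is near the 13.7% of all genes. Secretogranin 2 (scg2b) was at 2383 CPM in knockout and 1775 CPM in control members, against 280.2 CPM in the knockout rest and 309 CPM in the control rest. The prohormone convertase pcsk1, which cuts peptide precursors, was at 288 CPM in knockout and 253 CPM in control members, against 67.99 CPM in the knockout rest and 69.7 CPM in the control rest. Chromogranin A (chga) went the other way, with ratios of log2 -2.48 in the knockout and -1.60 in the control library. The CRH receptor crhr1 was at 378 CPM in knockout and 272 CPM in control members, against 536 CPM in the knockout rest and 551 CPM in the control rest, so its level in members was below that in the rest.

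Release machinery differed gene by gene. Among synaptotagmins and ferlins, 2 of 10 measured genes were at least 2-fold higher and 1 at least 2-fold lower in both libraries (median log2 -0.45), counting otofa, which the rule used. The fast calcium sensor syt2a was among the lowest genes, at 93.7 CPM in knockout and 92.8 CPM in control members, against 1041 CPM in the knockout rest and 1202 CPM in the control rest. The slower sensor syt7b was at 1138 CPM in knockout and 1003 CPM in control members, against 457 CPM in the knockout rest and 361 CPM in the control rest. Of 28 measured genes of the release machinery, 3 were at least 2-fold higher and 2 lower in both libraries, near the shares of 13.7% and 3.9% over all genes. The higher ones were doc2d, doc2b and rab3b; the Doc2 proteins are calcium sensors of asynchronous and spontaneous release. The doc2d ratio was log2 3.98 in the knockout and 3.64 in the control library, and that of doc2b log2 2.01 in the knockout and 1.74 in the control library. Core SNARE genes stayed near the rest, for example snap25a at 3275 CPM in knockout and 3028 CPM in control members, against 3517 CPM in the knockout rest and 3464 CPM in the control rest.

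Ion channel genes were mixed. For potassium channels, 4 of 15 measured genes were at least 2-fold higher and 4 at least 2-fold lower in both libraries (median log2 0.05). Those higher were kcnq5a, kcnh1a, kcnk10a and kcna2b. The Eag-type channel gene kcnh1a was at 1072 CPM in knockout and 679.9 CPM in control members, against 95.4 CPM in the knockout rest and 72.9 CPM in the control rest, and was seen in 96.9% of knockout and 90.4% of control members. Those lower included the A-type channel gene kcnd3, with ratios of log2 -1.94 in the knockout and -2.56 in the control library, and the Kv3 channel kcnc1a, with log2 -2.22 in the knockout and -2.51 in the control library. For calcium and pacemaker channels, 4 of 14 measured genes were at least 2-fold higher and 2 at least 2-fold lower in both libraries (median log2 -0.02). The R-type calcium channel cacna1ea was at 354 CPM in knockout and 492 CPM in control members, against 58.3 CPM in the knockout rest and 71.8 CPM in the control rest, and the P/Q-type cacna1ab at 562 CPM in knockout and 566 CPM in control members, against 2105 CPM in the knockout rest and 2039.9 CPM in the control rest. Among sodium channels, scn5lab, used by the rule, was the only gene 2-fold higher, and fgf13a, whose product modulates sodium channels, was lower with log2 -2.63 in the knockout and -3.10 in the control library.

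In the list of glutamate receptors 7 of 17 measured genes were at least 2-fold higher and 3 at least 2-fold lower in both libraries (median log2 0.26). AMPA receptor subunits gria3b, gria4b and gria4a had ratios of log2 4.02 in the knockout and 3.63 in the control library, of log2 2.52 in the knockout and 2.41 in the control library, and of log2 1.33 in the knockout and 1.13 in the control library. The metabotropic receptors grm2b and grm8b were higher, and grm8a was lower at 58.98 CPM in knockout and 76.6 CPM in control members, against 712 CPM in the knockout rest and 638 CPM in the control rest. The granule cell NMDA subunit gene grin2ca had ratios of log2 -3.82 in the knockout and -2.24 in the control library. In the list of GABA and glycine receptors, 1 of 9 measured genes were at least 2-fold higher and 1 at least 2-fold lower in both libraries (median log2 -0.42). The GABA-A subunit gabrb2a was at 173 CPM in knockout and 142 CPM in control members, against 819.8 CPM in the knockout rest and 698 CPM in the control rest, while gephyrin (gphna), the scaffold of inhibitory synapses, had ratios of log2 1.40 in the knockout and 1.08 in the control library.

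Guidance and surface genes formed the list with the largest number of higher genes, 13 of 24, with 2 lower (median log2 1.45). Apart from unc5db of the rule and ntng1a, the ligand genes sema3e and slit3 had ratios of log2 3.81 in the knockout and 3.71 in the control library, and of log2 3.43 in the knockout and 2.75 in the control library. The semaphorin receptor nrp1a had log2 3.25 in the knockout and 2.22 in the control library, and rgma, a ligand of neogenin, log2 2.04 in the knockout and 2.73 in the control library. The neogenin gene neo1a was lower, at 76.3 CPM in knockout and 88.2 CPM in control members, against 494 CPM in the knockout rest and 527 CPM in the control rest. The latrophilin gene adgrl1a was high in level, 2286 CPM in knockout and 3068 CPM in control members, against 843 CPM in the knockout rest and 968 CPM in the control rest. Of 23 measured cytoskeletal genes of large axons, 7 were higher and 0 lower. The higher ones included the neurofilament genes nefma and nefla. Summed over members, nefma was at 382 CPM in the knockout and 343 CPM in the control library. In the rest it was at 48.4 CPM in the knockout and 40.9 CPM in the control library. A UMI of nefma was seen in only 18 of 32 knockout and 23 of 52 control members. The microtubule genes tuba1b, map1b and maptb had ratios of log2 4.04 in the knockout and 3.43 in the control library, of log2 2.77 in the knockout and 3.05 in the control library, and of log2 2.68 in the knockout and 2.08 in the control library. Tubulin genes are near-identical, so reads of tuba1b may be split with its relatives.

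Transcription factor RNAs gave the members a mixed profile. Of 23 measured identity factors, 8 were at least 2-fold higher and 5 lower in both libraries (median log2 0.39). Eomesa, whose mouse counterpart marks intermediate progenitors and unipolar brush cells, was at 281 CPM in knockout and 408 CPM in control members, against 18.8 CPM in the knockout rest and 44.3 CPM in the control rest. Tlx3b, a homeobox gene that in mouse sets glutamatergic fate in the spinal cord, was at 271 CPM in knockout and 237 CPM in control members, against 24.8 CPM in the knockout rest and 30.02 CPM in the control rest. Others that were higher were mab21l2, esrrb, esrrga, lhx1a, pbx3b and zic2a, of which zic2a had the highest level with 2300.2 CPM in knockout and 2323 CPM in control members, against 966 CPM in the knockout rest and 996 CPM in the control rest. For genes of position along the brain, 3 of 6 measured were higher and 0 lower. They were en2b, en2a and irx3a; engrailed genes mark the midbrain and anterior hindbrain. The level of en2b was 559 CPM in knockout and 476 CPM in control members, against 73.9 CPM in the knockout rest and 83.01 CPM in the control rest.

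Markers fixed for Purkinje cells, eurydendroid cells (the projection neurons of the teleost cerebellum) and crest cells were present in part. Of 5 measured Purkinje genes, 4 were higher, namely esrrb, pcp4a, itpr1b and lhx1a, and 4 of the 17 had no UMI in any member. Genes were measured only with at least 50 UMIs over the members, so this count leans to higher. The whole Purkinje list summed to 1488 CPM in knockout members, against 1205 CPM in the knockout rest. In the control library it summed to 1982 CPM in members and 1787 CPM in the rest. Of 13 eurydendroid entries, 6 were at 0 and mab21l2 and slc17a6b were the 2 measured, of which the rule used slc17a6b. Of 2 measured genes of crest cells and octavolateral nuclei 1 was higher, and this was otofa, which the rule used. Of 12 genes of radial glia 1 was measured and 0 was higher, and of immature neuron genes 2 were measured and 0 was higher. The immature neuron list includes elavl4, given above, which made up most of its sum in members. That sum was 4444 CPM in knockout and 5423 CPM in control members. In the rest it was 2578 CPM in the knockout and 2540 CPM in the control library. In the list of calcium buffers and sensors, 4 of 18 measured genes were at least 2-fold higher and 1 at least 2-fold lower in both libraries (median log2 0.35). The members were given no cell type name from these lists and are called by uts1.

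In the list of cerebellar granule cell genes 1 of 8 measured genes were at least 2-fold higher and 5 at least 2-fold lower in both libraries (median log2 -1.53). The lower ones included etv1, fat2, nfixb and zic1, and the higher one was zic2a. The list summed to 5190.1 CPM in knockout and 5335 CPM in control members, against 10523 CPM in the knockout rest and 10186 CPM in the control rest. In barcodes under 100 UMIs the same sum was 8129 CPM in the knockout and 7614 CPM in the control library, and the part of free RNA in the members' granule UMIs was not tested. Among 562 genes with at least 300 CPM in the rest of both libraries, 106 (18.9%) were 2-fold lower and 17 (3.02%) 2-fold higher in members. The lowest of them were znf804a, syt2a, fxyd1, si:dkey-172j4.3, fat2, kcnc3a, rbfox3a, zgc:92107, znf385b and abi2a. The splicing regulator rbfox3a, the NeuN gene, was at 489 CPM in knockout and 427 CPM in control members, against 4931 CPM in the knockout rest and 3724 CPM in the control rest.

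In the list of immediate early genes, which neurons are known to induce with activity, 7 of 18 measured genes were at least 2-fold higher and 1 at least 2-fold lower in both libraries (median log2 0.97). The AP-1 genes fosab, fosb and junba had ratios of log2 1.63 in the knockout and 1.75 in the control library, of log2 2.18 in the knockout and 2.21 in the control library, and of log2 1.88 in the knockout and 2.66 in the control library. In barcodes of other kinds fosab was at 692 CPM in knockout and 866 CPM in control GABAergic barcodes, and at 29.9 CPM in knockout and 26.3 CPM in control galn barcodes. Among heat shock genes 1 of 11 measured genes were at least 2-fold higher and 0 at least 2-fold lower in both libraries (median log2 0.60). The higher one was hsp70.3, at 329.6 CPM in knockout and 399 CPM in control members, against 99.7 CPM in the knockout rest and 72.8 CPM in the control rest, which shares near-identical copies, so its count is uncertain.

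A set of 20 genes, chosen after the values were seen, served to ask how alike the members were. It took the 20 genes of highest CPM in members among those at least 8-fold higher in both libraries, leaving out the rule genes. They are adcyap1b, neto1l, cntn4, dlg2, tjp1a, gria3b, gpc6a, ntng1a, kcnh1a, doc2d, ablim1b, foxo1a, lrfn5a, srgap1b, lmo4a, vipr1b, itpr1b, epha4l, eomesa and magixb. A median of 18 were seen per member in both libraries, and a median of 1 per barcode of the rest, a gap that the choice of these genes fixes. Among rest barcodes at least as deep as the lower quartile of members the median was 4 in each library. Of the members, 29 in the knockout library held 13 or more of the 20 and 3 held 7 or fewer. In the control library 50 members held 12 or more and 2 held 8 or fewer. These 5 members are called exceptions; the split describes this choice of genes and carries no test.

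The exceptions differed from each other. In the knockout library 2 of them held 23 and 29 UMIs of kiss1, the gene of a kisspeptin peptide known in zebrafish from the ventral habenula, with 10 and 12 UMIs of pou4f2 and 121 and 254 UMIs of grid1b. They held 4 and 7 UMIs of uts1. The third held 5 UMIs of uts1, 1 of slc17a6b and none of adcyap1b. It also held 34 UMIs of the 6 granule genes, as many as some members with 14 or 19 of the 20 genes, which reached 33 in the knockout and 41 in the control library. Another knockout member held 17 kiss1 UMIs, 109 grid1b UMIs and 19 of the 20 genes, with 17020 UMIs in all, and was among the highest doublet scores. One more knockout member held 1 kiss1 UMI and no control member held any; members with at least 2 UMIs are called kiss1 members. In the control library the exceptions were a barcode of 1180 UMIs, the shallowest member, and one of 8679 UMIs with 43 UMIs of adcyap1b, 72 of grid1b and 11 of ccka, a cholecystokinin gene. Whether such barcodes are mixtures of cells was not tested.

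**Figure D3:**
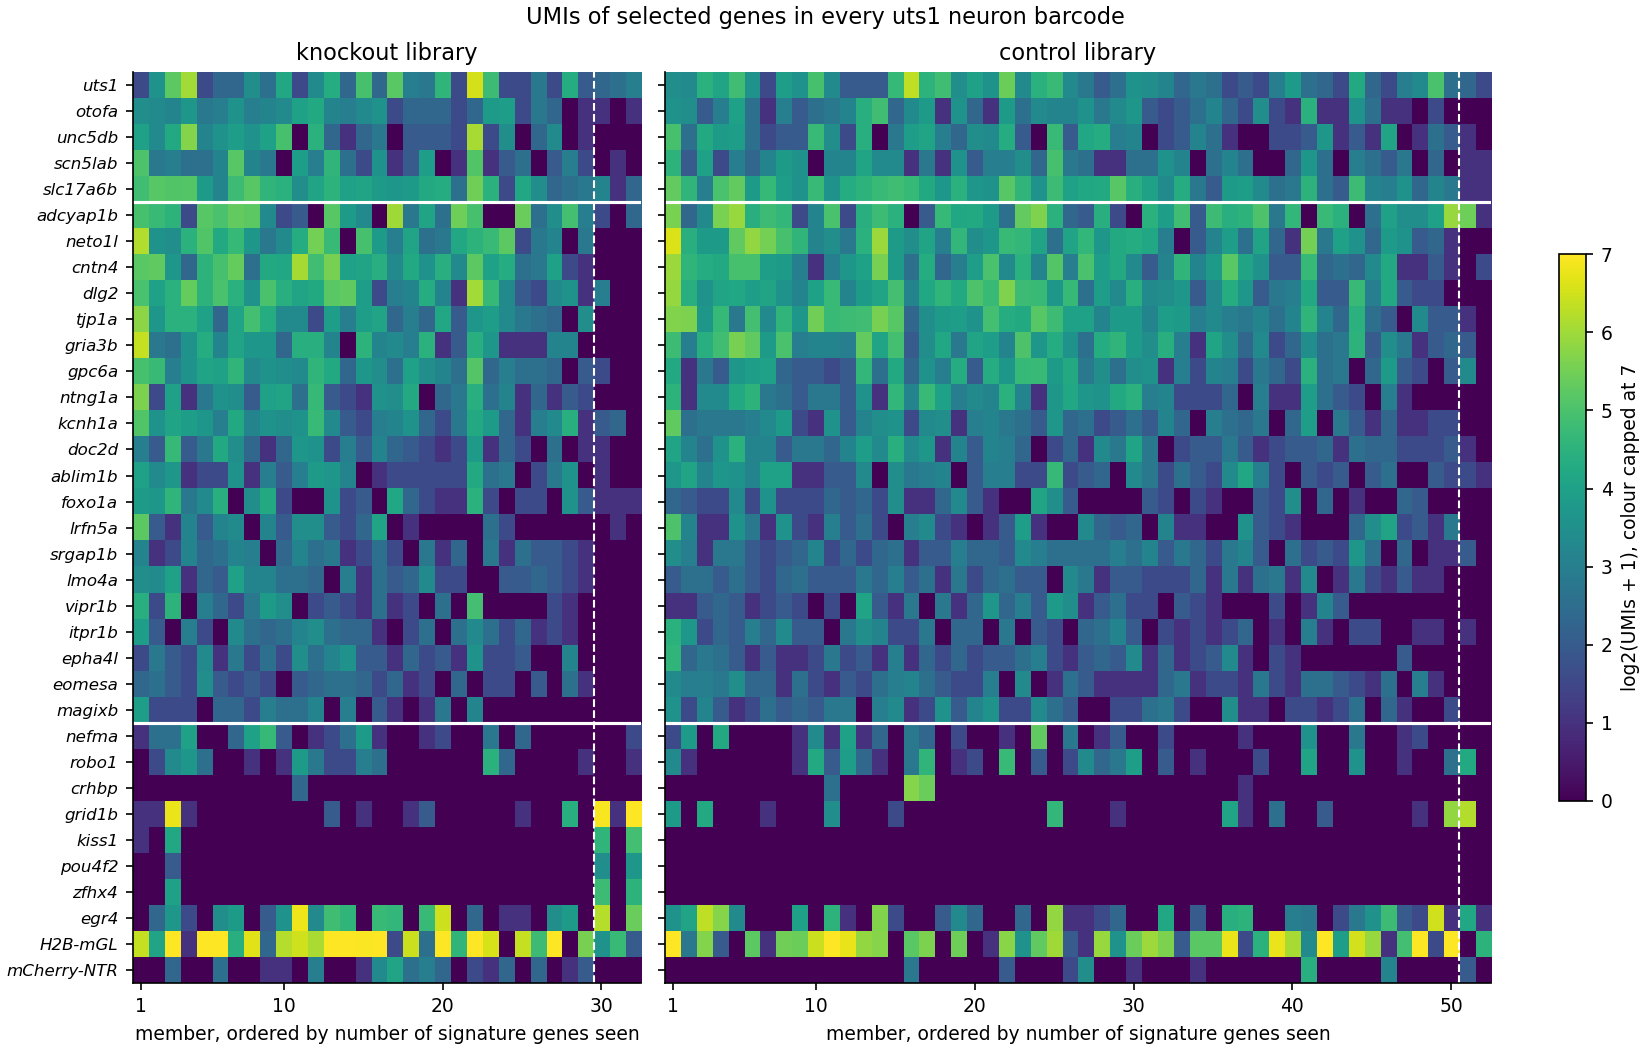
UMIs of selected genes, as log2(UMIs + 1), in each of the 84 uts1 neurons, knockout library left and control library right, 1 column a barcode, ordered by how many of the 20 signature genes were seen. White lines part the rule genes, the 20 signature genes and other genes; right of the dashed line are the 3 knockout and 2 control members with fewer than 10 of them, where most signature genes are at 0.

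Among members, RNA varied most, relative to Poisson sampling at each barcode's depth, for grid1b, egr4, fosab, crhbp, gpr139, celf4, hsp70l, zgc:122979, egr1 and rbfox1. Their variance was 17.4 to 76.3 times the Poisson value, against a median of 1.78 over 1558 genes with at least 100 UMIs. For grid1b, gpr139 and hsp70l, 49.1%, 54.3% and 47.01% of knockout UMIs came from 1 member. The CRH-binding protein gene crhbp was held by few members: 1 of 32 in the knockout library, with 4 UMIs, and 4 of 52 in the control library, with 52, 41, 5 and 1 UMIs. The 2 highest were also rich in uts1, with 79 and 22 UMIs, and had 0 and 3 UMIs of adcyap1b. One of them also held 22 UMIs of vip. The other 79 members had no crhbp UMI.

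The PACAP gene was uneven too. It was at 0 in 5 knockout and 4 control members, and above 30 UMIs in others. Among the 29 knockout and 50 control members that held at least 10 of the 20 genes, its rank correlation was 0.49 in knockout and 0.47 in control members with scg2b and 0.62 in knockout and 0.47 in control members with zmat4b. It was -0.56 in knockout and -0.56 in control members with robo1, the Slit receptor gene, and -0.65 in knockout and -0.30 in control members with otofa. In turn otofa had a rank correlation of 0.52 in knockout and 0.47 in control members with robo1 and 0.48 in knockout and 0.45 in control members with rgma. Levels of uts1 were near uncorrelated with adcyap1b, at -0.11 in knockout and -0.02 in control members. The rule chose barcodes on uts1 and otofa, and the 20 genes include adcyap1b. Correlations that involve these genes are therefore partly shaped by the choice of members. All are descriptions over barcodes of 1 library each, which share its preparation and differ in depth. Apart from those between named markers, they are among the strongest over 1475 genes searched.

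Other barcodes carried the 20 genes without passing the rule. At least 10 of them were seen in 40 barcodes of the knockout rest and 94 of the control rest. These took in 18 of the 39 knockout and 41 of the 76 control GABAergic barcodes, so the set was not particular to the members. Of the 40 and 94, the non-GABAergic barcodes numbered 22 in the knockout and 53 in the control library. They held no uts1 UMI in 17 and 44 barcodes of those libraries and 1 UMI in 5 and 9. By the populations above, 12 knockout and 29 control barcodes of these were granule barcodes, 10 knockout and 24 control barcodes fell in none, and 0 were galn barcodes. Their median depth was 5690.5 UMIs in the knockout and 5706 in the control library. In these barcodes adcyap1b was at 1361 CPM in the knockout and 1131 CPM in the control library, and neto1l at 1462 and 996 CPM. Both belong to the 20 genes that chose these barcodes, so their levels are partly set by the choice. Otofa, which is not among the 20, was at 358 CPM in the knockout and 305 CPM in the control library. Slc17a6b stood at 1079 CPM in the knockout and 809 CPM in the control library.

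For the comparison between genotypes, the targeted gene comes first. Gpr85 had 28 UMIs in knockout members and 41 in control members, or 97.1 CPM (exact Poisson interval 64.5 to 140.4) and 95.1 CPM (68.3 to 129). The log2 ratio of knockout over control was 0.04 (95% interval -0.72 to 0.76). In the rest it was -0.43 (95% interval -0.54 to -0.33), with 109 CPM in the knockout and 147 CPM in the control library. A UMI of gpr85 was seen in 43.8% of knockout and 46.2% of control members, against 25.1% of knockout and 30.4% of control granule barcodes, which had median depths of 2844 and 2546 UMIs. Thinned to 1000 UMIs, the shares were 9.38% of knockout and 5.77% of control members, 3 barcodes in each, against 10.9% of knockout and 13.98% of control granule barcodes. At 1 depth the members' shares were therefore not above those of granule barcodes. The deposited counts do not tell which part of the gpr85 transcript was read, and whether it lies outside the knock-in site was not tested. Gpr27 was at 69.4 CPM in knockout and 71.9 CPM in control members. Gpr173 had no UMI in any member, an upper limit of 12.8 CPM in knockout and 8.56 CPM in control members.

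The files list 3 added sequences. Levels of H2B-mGL and mCherry-NTR were higher in knockout than in control members, and mTagBFP2 had no UMI in any member. H2B-mGL had lowest 0, median 78 and highest 423 UMIs in knockout members, and lowest 0, median 37.5 and highest 336 UMIs in control members. It summed to 10273 CPM in knockout and 6031 CPM in control members, a log2 ratio of 0.77 (95% interval 0.69 to 0.84). In the rest the levels were higher, 25927.5 CPM in the knockout and 12272 CPM in the control library, with a ratio of 1.08 (95% interval 1.07 to 1.09). As many as 5 knockout and 14 control members held 3 or fewer UMIs of it, so the groups overlap. mCherry-NTR was seen in 17 of 32 knockout and 9 of 52 control members, and summed to 75 and 54 UMIs in those members. Its log2 ratio was 1.05 (95% interval 0.53 to 1.59) in members and -1.20 (95% interval -1.35 to -1.06) in the rest. By kind of barcode it stood at 698 CPM in knockout and 358 CPM in control GABAergic barcodes, and at 17.2 CPM in knockout and 97.5 CPM in control granule barcodes. The share of barcodes with a UMI was 1.18% of knockout and 7.09% of control granule barcodes. The labels do not say which transgene either sequence comes from.

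**Figure D4:**
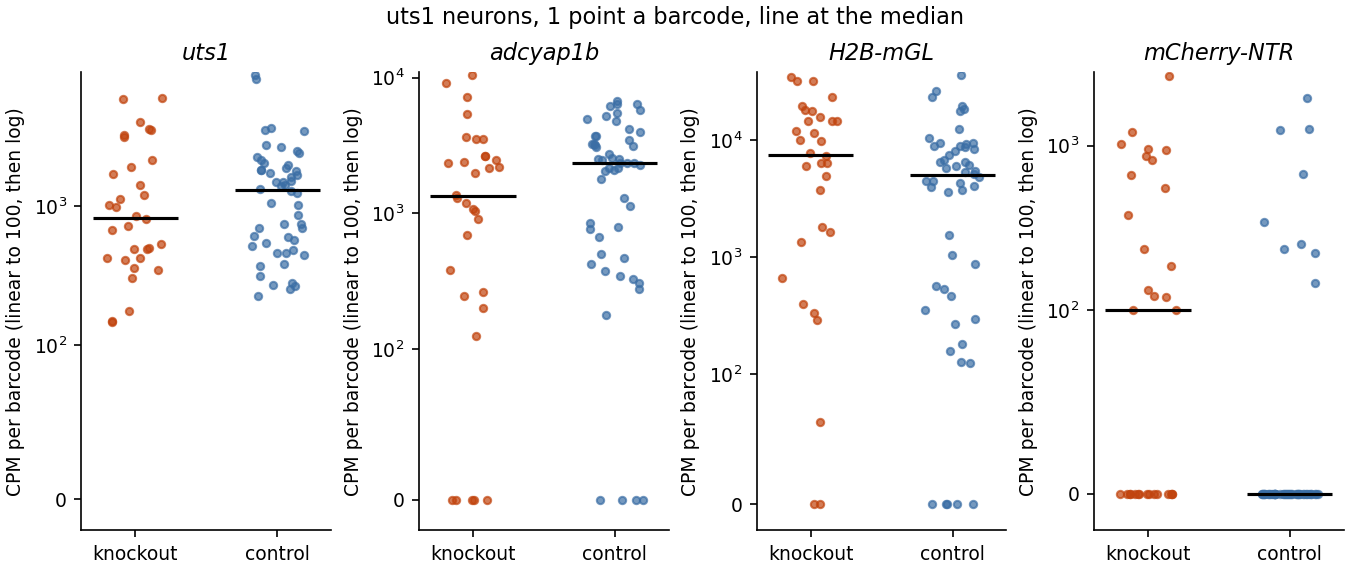
CPM per barcode, linear to 100 and then on a log scale, of uts1, adcyap1b, H2B-mGL and mCherry-NTR in the 32 knockout and 52 control uts1 neurons, knockout left; 1 point is a barcode and the line is the median. Points of both libraries overlap in every panel, and mCherry-NTR is at 0 in 43 control members.

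Levels of the defining genes were close between libraries. For uts1 the log2 ratio was 0.11 (95% interval -0.06 to 0.29), for otofa -0.05 (95% interval -0.30 to 0.20) and for slc17a6b -0.06 (95% interval -0.21 to 0.10). For unc5db it was 0.31 (95% interval 0.09 to 0.53) and for scn5lab 0.20 (95% interval -0.05 to 0.44). These genes chose the members, so their ratios describe the choice. For adcyap1b the ratio was -0.23 (95% interval -0.38 to -0.07) in members and 0.46 (95% interval 0.34 to 0.58) in the rest. Without the 3 kiss1 members it was -0.11 (95% interval -0.27 to 0.04). Among members with at least 10 of the 20 genes it was -0.07 (95% interval -0.23 to 0.08). Both intervals take in 0. Adcyap1b belongs to those 20 genes, so the last ratio is partly set by the choice of members.

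Of the 3206 genes measured, 206 (6.43%) differed at least 2-fold between libraries in members, 101 (3.15%) higher and 105 (3.28%) lower in the knockout library. Among the same genes 78 (2.43%) differed 2-fold in the rest, which holds many more UMIs. Of the 206, 32 also differed 2-fold in the same direction in the rest. With the 29 knockout and 50 control members that held at least 10 of the 20 genes, 164 of 3019 genes (5.43%) differed, 58 (1.92%) higher and 106 (3.51%) lower, and 129 of the 164 were among the 206. The number follows the UMI minimum: with at least 100 UMIs over members it was 65 of 1569 genes, and with at least 20 it was 776 of 6387. After thinning to 1000 UMIs it was 7 of 243 genes, and 1 of the 7 was among the 206. The median log2 ratio was -0.01 in members.

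Genes were ranked between libraries only if seen in at least 25% of the members of the library where they were higher. This limit left out prkcq, which had 59 UMIs in knockout and 0 in control members. Its log2 ratio was 7.48 in members and 3.58 without the 3 kiss1 members, where the lower 95% bound of -0.50 lies below 0. Both ratios rest on the 0.5 added to a control sum of 0. Within the 25% limit, the 10 genes highest in knockout members were gulp1b, csrp2, oaz2b, msi2b, rims3, ak5, necab1, id4, aglb and nr4a2b. Of these, 8 had over 50% of their knockout UMIs in the 3 kiss1 members, which held 12.3% of all UMIs of knockout members. Msi2b, an RNA-binding protein of the Musashi family, had 189 UMIs in knockout and 38 in control members, a log2 ratio of 2.88 (95% interval 2.39 to 3.44). Without the kiss1 members its ratio was 0.65 (95% interval -0.05 to 1.35), and for ak5, an adenylate kinase gene, it was 0.14 (95% interval -0.88 to 1.09) against 2.64 with them. Only 5 of the 10 stayed 2-fold higher without those members. Those 5 were gulp1b, oaz2b, necab1, aglb and nr4a2b. Among members with at least 10 of the 20 genes, which keep 1 of the 3 kiss1 members, all 10 stayed 2-fold higher. Oaz2b, an inhibitor of polyamine synthesis, was seen in 25 of 32 knockout and 9 of 52 control members, with a ratio of 3.12 (95% interval 2.27 to 4.18) in members and 1.97 (95% interval 1.87 to 2.08) in the rest. Nr4a2b, a nuclear receptor gene, was seen in 9 knockout and 9 control members, with at most 27 UMIs in a knockout and 8 in a control barcode. Its ratio was 2.48 (95% interval 1.82 to 3.23) in members and -1.40 (95% interval -2.46 to -0.52) in the rest, where it had 1.19 CPM in the knockout and 3.23 CPM in the control library.

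Within the same limit of 25%, the 10 genes lowest in knockout members were fxyd6, hist1h4l, si:ch211-281l24.3, dab1a, zgc:171497, etv5a, LRFN2, sc:d217, ppp1r1c and rpz2. All 10 stayed 2-fold lower without the kiss1 members and among members with at least 10 of the 20 genes, and all 10 had a negative ratio in the rest, where 3 were 2-fold lower. Fxyd6, a regulator of the sodium pump, had no UMI in knockout members and 50 UMIs in 15 control members, at least 11.1-fold lower in knockout members against a floor of 3 UMIs over the group. In the rest its ratio was -0.99 (95% interval -1.08 to -0.90). Hist1h4l, a histone H4 gene, had 1 UMI in knockout and 76 in control members, and si:ch211-281l24.3 had 1 and 60 UMIs in those members. Their ratios in the rest were -2.25 (95% interval -2.50 to -2.01) and -4.55 (95% interval -4.95 to -4.20). A second hist1h4l entry had 49 UMIs in knockout and 72 in control members, a log2 ratio of 0.03 (95% interval -0.53 to 0.57). Histone genes are near-identical copies, so the count of either hist1h4l entry is uncertain. LRFN2, a synaptic adhesion gene, had 16 UMIs in knockout and 102 in control members and was seen in 10 knockout and 29 control members, with a ratio of -2.05 (95% interval -2.95 to -1.32). Etv5a, an ETS transcription factor gene, had 9 UMIs in knockout and 68 in control members. Its ratio in members was -2.27 (95% interval -3.53 to -1.33), and in the rest -0.26 (95% interval -0.31 to -0.22).

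**Figure D5:**
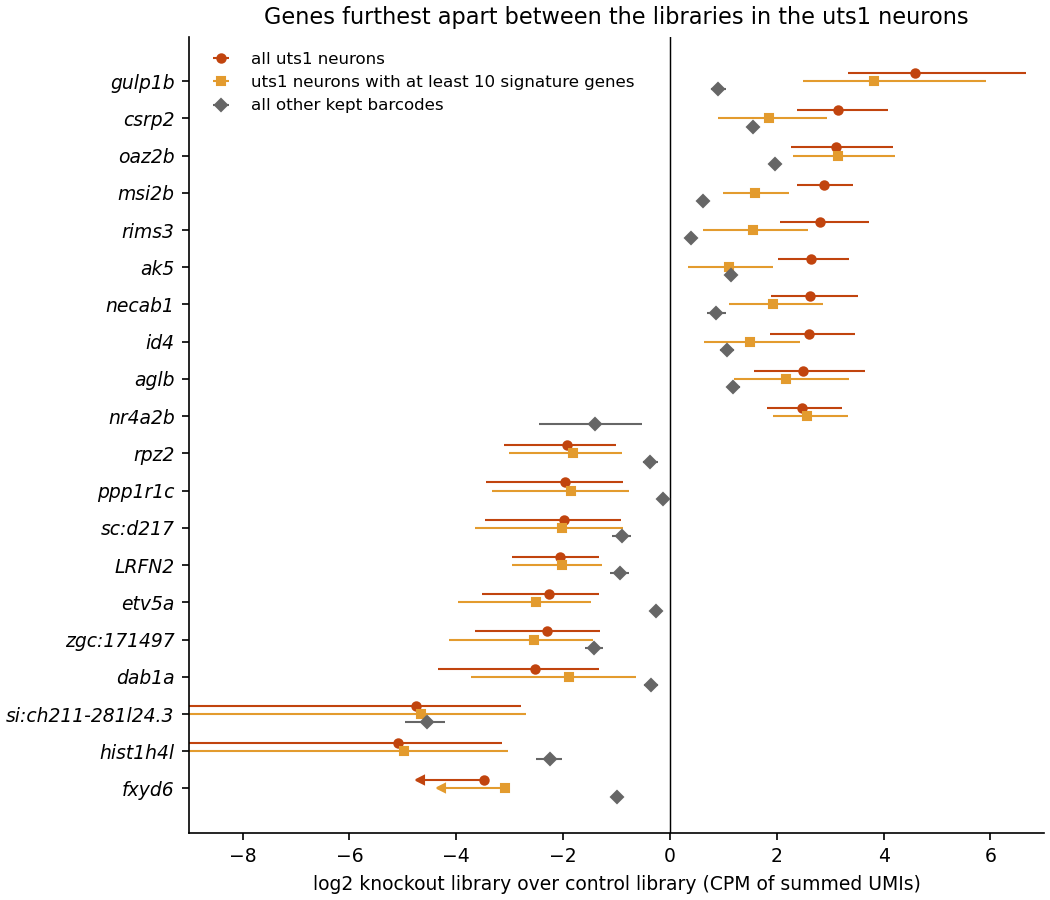
Log2 ratios of knockout over control for the 10 highest and 10 lowest genes in the uts1 neurons. Genes were limited to those seen in at least 25% of the members of the library where they were higher. Ratios are shown for all members, for members with at least 10 signature genes and for all other kept barcodes. Bars are exact conditional binomial 95% intervals. Fxyd6, at 0 in knockout members, is drawn at the bound set by 3 UMIs with an arrow. For 8 of the 10 highest genes the ratio in members with the signature is nearer 0 than in all members; for nr4a2b alone the members and the other barcodes lie on opposite sides of 0.

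Median log2 ratios of knockout over control in members are given by list, beside the -0.01 of all genes measured. For peptide processing the median was 0.06, with 0 genes higher and 1 lower by 2-fold of 14. It was 0.06 for the release machinery, -0.01 for potassium channels and 0.13 for calcium and pacemaker channels. For glutamate receptors it was -0.27, with 3 of 17 higher and 1 lower. For guidance genes 4 of 24 were higher and 0 lower, with a median of 0.06. Immediate early genes had a median of 0.22 in members and 0.63 in the rest, and heat shock genes 0.21 in members and 0.45 in the rest. Counts of 2-fold different genes in these lists are to be read beside the 3.15% higher and 3.28% lower of all genes measured. They include the kiss1 members.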

How the data were processed

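Counts were deposited as whole-number UMI counts per gene and barcode for all barcodes, per the file headers and the deposited matrices, from Cell Ranger 7.1.0 with build GRCz11, per the submitters' processing notes, which also name Seurat; the use of Seurat and any cell filter of the authors are not given in the sources used here. The matrices list 25435 features, including 3 added sequences. Members were found by the rule in both libraries. The members, the gene lists and the comparisons were chosen with earlier results of these data known. UMIs were summed over members or over the rest of a library and scaled to CPM; log2 ratios add 0.5 to each sum. Genes with at least 50 UMIs over the members of both libraries were compared. A gene is called 2-fold different by size alone, without a test. Named genes are the 25 highest and 10 lowest against the rest, the 10 highest and 10 lowest between libraries, the 10 most variable and up to 6 of each of 32 gene lists. The 25 highest had to be seen in at least 25% of the members of each library. Those named between libraries had to be seen in at least 25% of the members of the library where they were higher. A few others were chosen after their values were seen. Intervals at 95% were exact Poisson for sums and Clopper-Pearson for shares. For ratios they came from the conditional binomial distribution (sums) or the Katz formula (shares). For depth ratios they came from the ranked depths of members, with the median of the rest held fixed. UMIs of 1 barcode are not independent, so intervals are too narrow where few barcodes hold most UMIs.

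Doublets were scored with Scrublet in scanpy 1.11.5. Its automatic threshold marked 2 knockout and 0 control barcodes and so did not work; doublets were kept, and an alternative left out the top 84 knockout and 134 control scores, with 2 knockout and 6 control members among them. Alternatives changed the barcode minimums, each part of the rule, free RNA, thinning, scaling and the gene minimum. The scripts were tested on simulated data. Numpy 2.4.6 and scipy 1.17.1 were used. No sequences are shown, since no genome or sequence tables were used here.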

Additional observations from a re-analysis of the deposited data

Results flagged for a closer look

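In 3 results the ratio of knockout over control had an interval above 0 in one set of barcodes and below 0 in the other. The difference between members and the rest was not tested in any of them, since each genotype had 1 library. The log2 ratio of mCherry-NTR was 1.05 in members and -1.20 in the rest. For nr4a2b it was 2.48 in members and -1.40 in the rest. For adcyap1b it was -0.23 in members and 0.46 in the rest. Among members with at least 10 of the 20 signature genes the adcyap1b ratio was -0.07 (95% interval -0.23 to 0.08). Adcyap1b belongs to those 20 genes, so this ratio is partly set by the choice of members.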

How the results depend on the processing

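Of 147 recomputed values, 128 stayed within the interval of the reported value or, for counts of genes, within 1.5 times of it. The ratio of shares, the depth ratios and the gpr85 ratio did so under every alternative run on them, while the control share itself was 1.71% with stricter barcode minimums; the gpr85 ratio ranged from -0.15 to 0.70. The mCherry-NTR ratio ranged from 0.50 to 1.499 and the nr4a2b ratio from 1.78 to 3.36. After thinning the mCherry-NTR interval of -0.37 to 3.06 took in 0. The adcyap1b interval also took in 0 after thinning and with at least 3 of the 4 genes, as among members with at least 10 signature genes and without the kiss1 members. The H2B-mGL ratio of 0.77 became 1.17 with at least 3 of the 4 genes, 0.88 with no GABAergic UMI, 0.90 with doublets removed, 0.57 after thinning, 0.67 as a mean of CPM per barcode, 0.86 among members with at least 10 signature genes and 0.85 without the kiss1 members. The uts1 ratio of 0.11 became -0.075 with no GABAergic UMI and -0.062 as a mean of CPM per barcode. Genes 2-fold higher in members numbered 65 of 243 after thinning and 283 of 1569 with at least 100 UMIs, in place of 440 of 3206. Against GABAergic barcodes they numbered 194 of 3206. Genes 2-fold different between libraries numbered 7 of 243 after thinning, 776 of 6387 with at least 20 UMIs and 65 of 1569 with at least 100 UMIs. In the main run they numbered 206 of 3206. Thinning and the higher minimum leave fewer genes to compare; the other causes were not tested. The selections by signature genes and kiss1 were chosen after seeing the data, and adcyap1b is itself a signature gene. Free RNA, thinning, scaling and gene minimums do not change shares or depths and were not run on them. No paired analysis was possible because each genotype had 1 library. Depth limits the gpr85 ratio: 28 knockout and 41 control UMIs leave an interval of -0.72 to 0.76.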
